A study of Mus musculus with 2 samples.

Results

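The Fos, Jun and Egr families are immediate early genes, transcription factor genes that a cell can switch on within minutes of a stimulus. The genes described here were taken by symbol from the deposited transcript tables and number 10 of 55536 annotated genes. They comprise Fos, Fosb, Fosl1 and Fosl2 of the Fos family, Jun, Junb and Jund of the Jun family, and Egr1, Egr2 and Egr3 of the Egr family. The list was chosen by symbol with the TPM and expected counts of these same libraries in view, so all values below describe the libraries and none is a test. Total RNA of adrenal glands was sequenced in 2 libraries, labelled as biological replicates 1 and 2, from female mice aged 4 days of B6CASTF1/J, a hybrid of a laboratory and a wild-derived inbred strain. Both were stranded, ribosomal RNA-reduced libraries made from 300 ng of RNA with an ERCC spike-in, and they form 1 group with no treatment, time course or control group. The labels leave the animal behind replicate 2 unclear, because the text on its library names the same animal as replicate 1, the text on its tissue names a different one, and the donor record is shared. The spread between the libraries may therefore not be that between animals.

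Fos proteins pair with Jun proteins through a leucine zipper to form the transcription factor AP-1, and Jun proteins can also pair among themselves. Egr proteins bind GC-rich DNA through zinc fingers and act alone, restrained by the corepressors Nab1 and Nab2. Most of these genes lie silent or low in resting cells and are induced through the kinases of the MAP kinase and cyclic AMP pathways acting on the factors SRF, ELK and CREB. In the adrenal gland, corticotropin acts on the cortex through cyclic AMP and nerve signals act on the medulla, and both are known to induce Fos.

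The gland's own marker genes were high in both libraries, and each library also held transcripts of other organs. The 7 markers of the cortex, led by Hsd3b1, Cyp21a1 and Cyp11a1, all exceeded 1 TPM, with sums of 6068 TPM (replicate 1) and 6684 TPM (replicate 2). TPM is a level corrected for transcript length and scaled to a fixed total per library. The 6 chromaffin cell markers summed to 1847 and 2162 TPM. All 5 pancreas markers were higher in replicate 1, with sums of 3611 and 0.490 TPM, and Cela2a, Ins2 and Prss2 had no count in replicate 2. The 5 kidney markers summed to 86.4 and 8.83 TPM. In the other direction, the 5 skeletal muscle markers summed to 242 and 1548 TPM, the 5 liver markers to 92.7 and 372 TPM, and the 7 macrophage markers to 90.7 and 127 TPM. Of all these markers, only those 3 pancreas genes had no count in 1 of the libraries. In bulk RNA, more cells of a type and more RNA per cell cannot be told apart. The part that the other organs and the macrophages play in the values below was not tested.

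The DNA just before the start sites shows some of the regulatory letters in which these genes differ. RefSeq windows of the build GRCm38, which has the same coordinates as mm10, were matched by symbol for 7 of the 10 genes (Fos, Fosb, Fosl2, Jun, Junb, Jund and Egr2). Shown are 140 bases each of Junb, Fos and Fosb, the 3 members that were furthest toward replicate 2 and had a window. Jun, which was nearly level, and Egr2 are shown beside them. Among the 7 genes, only Egr2 had an SRF motif in its searched windows, and not in the window nearest its GENCODE gene start. Bases further upstream were not searched, nor were Fosl1, Egr1 and Egr3. Egr2 has 5 windows, for different starts, and the others have 1 each. Capitals mark matches to any of 8 motifs, searched on both strands over windows from 250 bases before to 50 bases after the start. They were TATAAA (the TATA box), TGACGT and the longer TGACGTCA that contains it (bound by CREB), TGACTCA (bound by AP-1), TGACATCA (an AP-1 and ATF site known from Jun), CCAAT (bound by NF-Y), GCGTGGGCG (bound by Egr proteins) and the CArG box (bound by SRF).
Fos (chr12:85473750-85473889, plus strand): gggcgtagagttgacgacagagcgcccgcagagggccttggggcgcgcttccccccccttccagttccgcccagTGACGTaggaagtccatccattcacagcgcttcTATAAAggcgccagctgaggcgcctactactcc
Junb (chr8:84978719-84978858, minus strand): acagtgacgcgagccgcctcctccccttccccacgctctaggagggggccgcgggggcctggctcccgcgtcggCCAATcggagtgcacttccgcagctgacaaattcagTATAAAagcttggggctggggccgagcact
Jun (chr4:95052223-95052362, minus strand): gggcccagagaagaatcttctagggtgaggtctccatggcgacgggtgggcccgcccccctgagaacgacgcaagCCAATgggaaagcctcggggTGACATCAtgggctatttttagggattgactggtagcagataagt
Fosb (chr7:19310046-19310185, minus strand): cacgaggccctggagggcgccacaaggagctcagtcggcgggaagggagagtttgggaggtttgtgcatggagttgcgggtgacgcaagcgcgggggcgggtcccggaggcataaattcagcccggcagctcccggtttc
Egr2 (chr10:67537729-67537868, plus strand): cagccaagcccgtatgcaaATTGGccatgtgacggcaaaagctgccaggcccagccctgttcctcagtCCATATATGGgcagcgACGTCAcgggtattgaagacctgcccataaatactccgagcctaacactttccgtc

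Each stretch ends at the base before the RefSeq start, except that of Junb, which runs on 30 bases past it to reach the base before the GENCODE start. The RefSeq start of Fosb lay 6 bases inside the GENCODE transcript, and that shown for Egr2 lay inside the GENCODE gene, at 67537869 against a gene start of 67535475. TATAAA stood in the windows of Fos, at position -33 from the start, and Junb, and in 13.6% of all 32851 RefSeq windows. TGACGT stood in those of Fos, at position -66, and Egr2, at position -56, and in 7.51% of all windows. The CArG box stood in that of Egr2, at position -72, and in 1.63% of all windows, and TGACATCA in that of Jun, at position -45, and in 3.62%. CCAAT was found in those of Jun, Junb and Egr2 and in 37.4% of all windows. These shares are per window, while Egr2 was searched over its 5 windows and so had more places to match. The Egr2 window whose start lay 24 bases from the GENCODE gene start held none of the 8 motifs. All Egr2 matches came from windows further inside the gene. Those with starts at 67537869, 67537870 and 67537930 overlap and hold the same sites. No window of the 7 genes held TGACGTCA, TGACTCA or GCGTGGGCG, motifs that stood in 1.79%, 5.20% and 0.612% of all windows. The window of Fosb held none of the 8 motifs. The RefSeq start lay 671 bases from the GENCODE start of Fosl2 and 1210 bases from that of Jund, so their windows do not cover the start that was quantified.

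Fosl2 and Jund, not Fos, were the most abundant members of the families in both libraries. Of the 10 genes, 6 reached 1 TPM in both libraries, namely Fosl2, Jund, Jun, Junb, Egr1 and Fos, and 4 stayed below it in both, namely Fosb, Fosl1, Egr2 and Egr3. The summed level of all 10 was 204 TPM in replicate 1 and 243 TPM in replicate 2, or 223 ± 27.7 TPM (SD, n = 2). All 10 had gene-level expected counts that were exactly whole in both deposited gene tables, while counts of their single transcripts could be fractions.

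Within the Fos family, Fosl2, which encodes Fra-2, a Fos protein that lasts longer than Fos itself, took nearly the whole level. Fosl2 (ENSMUSG00000029135.10, plus strand of chromosome 5 from 32135801 to 32157842) measured 88.6 TPM in replicate 1 and 105 TPM in replicate 2, on 15397 and 19852 expected counts. It ranked 651 and 535 among 22015 nuclear protein-coding genes and made up 96.3% and 95.4% of the summed TPM of its family. Fos (ENSMUSG00000021250.13, plus strand of chromosome 12 from 85473890 to 85477273), the founding member and the usual marker of recent stimulation, measured 2.95 and 4.51 TPM on 154 and 249 counts. Fos ranked 11600 in replicate 1 and 10320 in replicate 2 and made up 3.21% and 4.08% of the family. Fosb, which encodes a close relative known in the brain for a stable splice form, measured 0.35 and 0.55 TPM on 37 and 58 counts. Fosl1, which encodes Fra-1, had 4 counts in replicate 1 and none in replicate 2, where the absence of counts limits its share of the library to 9.11e-06% (3 counts of the total). With 0.01 TPM added to every level, that of Fosl2 was 29.9 times that of Fos in replicate 1 and 23.3 times in replicate 2, and that of Fos was 8.22 and 8.07 times that of Fosb.

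Within the Jun family the order was Jund, Jun and Junb in both libraries. Jund (ENSMUSG00000071076.6, plus strand of chromosome 8 from 70698949 to 70700616), the family member known for steady expression in resting cells, measured 69.5 TPM in replicate 1 and 76.4 TPM in replicate 2, on 3356 and 3817 counts. Jun (ENSMUSG00000052684.4, minus strand of chromosome 4 from 95049034 to 95052222), the strongest activator of the family, measured 20.9 and 20.8 TPM on 1990 and 2046 counts. Junb (ENSMUSG00000052837.6, minus strand of chromosome 8 from 84974484 to 84978718), a weaker activator that can oppose Jun, measured 9.32 and 18.2 TPM on 484 and 990 counts. The libraries were level for Jun and apart for Junb. Of the summed family TPM, Jund made up 69.7% and 66.2%, Junb 9.35% and 15.8%, and Jun the rest. On the same scale, the log2 ratio of Jun to Junb within a library was 1.17 in replicate 1 and 0.19 in replicate 2, while that of Jund to Jun was 1.73 and 1.88.

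In the Egr family, Egr1 carried nearly all of the level. Egr1 (ENSMUSG00000038418.7, plus strand of chromosome 18 from 34859823 to 34864984), a growth factor and hormone response gene, measured 10.7 TPM in replicate 1 and 16.1 TPM in replicate 2, on 1041 and 1624 counts. It made up 90.5% and 95.9% of the family. Egr3, known from muscle spindles and lymphocytes, measured 0.36 and 0.41 TPM on 29 and 39 counts. Egr2, known from myelinating Schwann cells and the hindbrain, had more counts in replicate 2 (16 and 23) but a lower TPM there (0.76 and 0.28 TPM). Of its 0.76 TPM in replicate 1, the 356-base transcript Egr2-207 held 0.6 TPM on 4.77 counts. In replicate 2 the longer transcript Egr2-203 held 16.6 counts and 0.2 TPM. The deposited bounds around the posterior mean TPM of Egr2, whose level of confidence the file headers do not state, ran from 0.434 to 1.67 in replicate 1 and from 0.323 to 1.12 in replicate 2 and so overlapped.

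**Figure D1:**
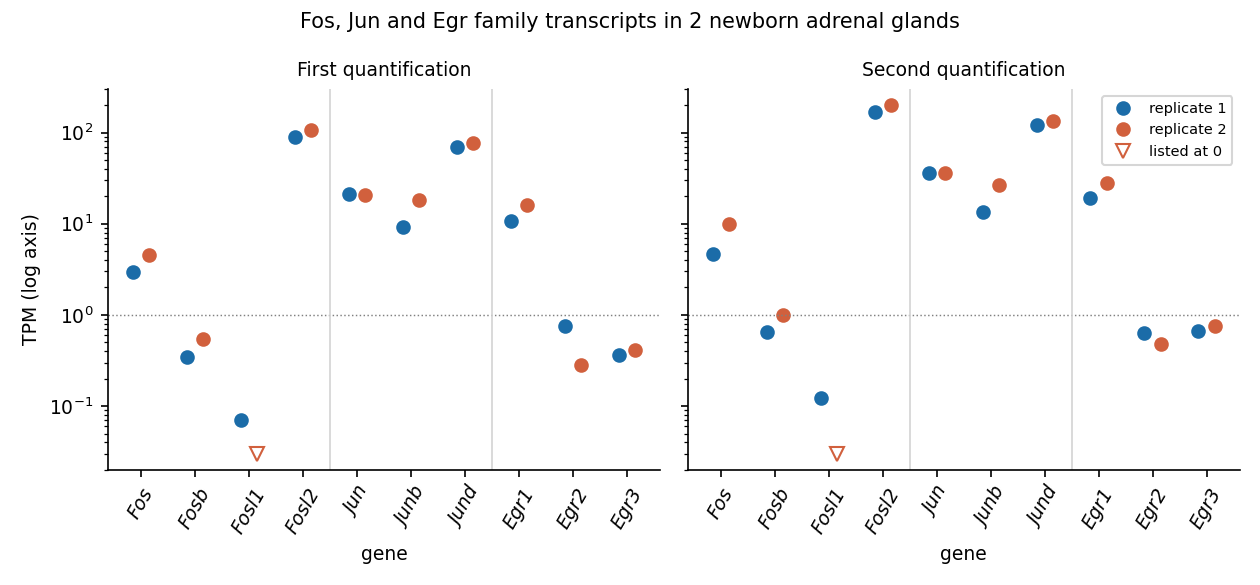
TPM of each gene in each library on a log axis, in the gene tables (left) and in the second quantification (right); each point is 1 library, the triangle marks a gene listed at 0, the dotted line is 1 TPM, and vertical lines part the families. Fosl2 and Jund are highest and Fosb, Fosl1, Egr2 and Egr3 lowest in both panels.

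Ordered by mean TPM, the genes ran Fosl2, Jund, Jun, Junb, Egr1, Fos, Egr2, Fosb, Egr3 and Fosl1. Of the 9 pairs of neighbours in that order, 6 had values that did not overlap between the libraries. The other 3 overlapped: Junb with Egr1, Egr2 with Fosb, and Fosb with Egr3. These orders therefore do not hold beyond the spread between the libraries. In the second quantification, a deposited table of estimated counts and TPM per transcript that was made from the read files and summed here to genes, Junb with Egr1 and Fosb with Egr3 overlapped again. Egr2, at 0.639 and 0.486 TPM there, lay below Fosb, at 0.653 and 0.988 TPM, in both libraries. There, all 10 summed to 364 and 436 TPM, Fosl2 measured 167 and 199 TPM, Jund 122 and 134 TPM, and Egr1 19.1 and 28.2 TPM. The shares of the leading genes were close to those given: 96.9% and 94.7% for Fosl2, 71.3% and 68.1% for Jund, and 93.6% and 95.8% for Egr1.

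Between the libraries, Junb, Fos and Egr1 were higher in replicate 2, while Jun was nearly level. Ratios were taken from expected counts scaled by TMM, a method that equalises the bulk of genes, and the 95% intervals given are exact binomial intervals that cover counting error only. Expressed as replicate 2 over replicate 1, the log2 ratio of Junb was 1.03 (interval 0.87 to 1.19), a 2.04-fold difference. Fos had a log2 ratio of 0.69 (0.39 to 0.99) and Egr1 of 0.64 (0.52 to 0.75), or 1.61-fold and 1.56-fold. The 2 most abundant members differed less: Fosl2 had a log2 ratio of 0.36 (0.33 to 0.39) and Jund of 0.18 (0.11 to 0.25). Fosl2 fell below its interval by total counts (0.32), spike-ins (0.28) and deposited TPM (0.25). It lay above that interval in the second quantification (0.41). Jund left its interval by spike-ins only (0.10). The ratio of Fosl2 thus moved with the processing by more than its counting error. Jun had a log2 ratio of 0.04 (-0.05 to 0.13) by TMM, which turned to -0.01 by total counts and -0.04 by spike-in counts. In the second quantification the ratio of Jun was 0.10, with an interval (0.02 to 0.19) above 0. For 5 of the 6 genes the interval lay above 0, as it did for 23.4% of all 13734 genes whose counts averaged 100 or more, and these 5 were higher in replicate 2 also by total counts, by spike-ins, in the second quantification and by deposited TPM.

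The sizes of these differences were set against the same 13734 genes. Among the 10 genes, 6 had such a count. Junb was the 1 that reached 2-fold by TMM, and 3.21% of all genes reached it in either direction (1.50% higher in replicate 2 and 1.71% higher in replicate 1). By total counts, spike-ins and deposited TPM the log2 ratio of Junb was 0.98, 0.95 and 0.96, so the count of 1 became 0. Of the 6 genes, 3 had a log2 ratio of at least 0.5, against 3.09% of all genes, and all 6 were above 0 by TMM, against 55.3%. Their median was 0.50 and that of all genes 0.02. A ratio at or above that of Junb was found in 1.46% of genes, at or above that of Egr1 in 2.24%, at or above that of Fosl2 in 4.98%, and at or above that of Jun in 45.8%. The genes were chosen with these libraries known, so these shares say where they stand and nothing more.

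**Figure D2:**
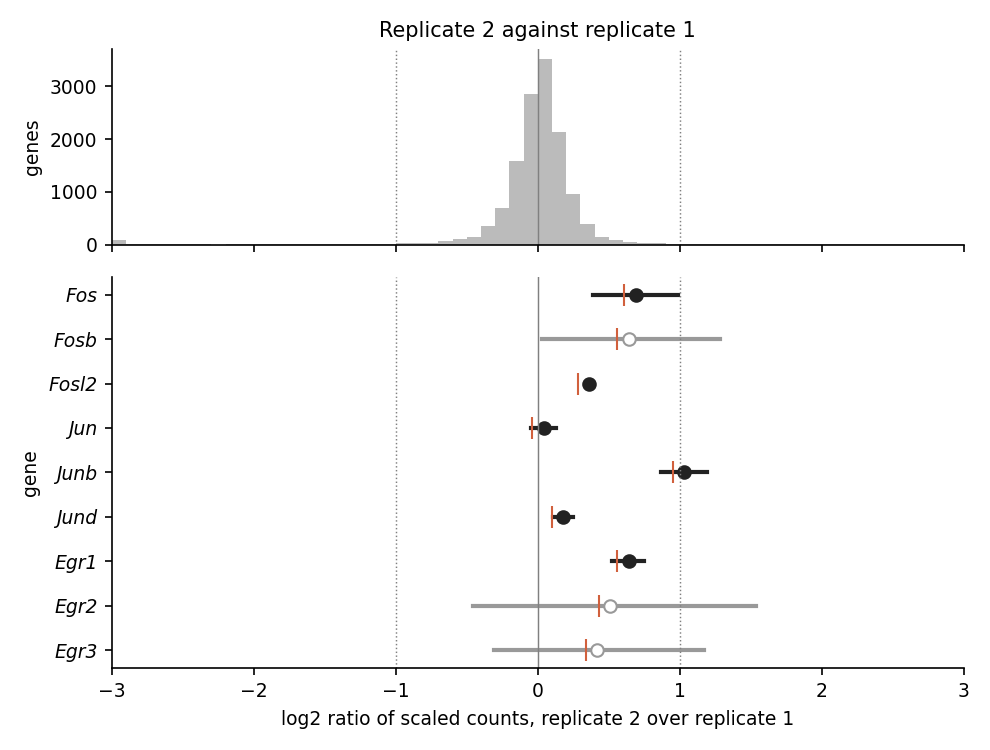
Log2 ratio of replicate 2 over replicate 1 (horizontal axis); top, the number of genes per bin among the 13734 genes averaging 100 or more counts, with values past 3 placed in the end bins; bottom, each gene with its 95% counting interval, filled where its counts averaged 100 or more, and the spike-in scaled ratio as an orange tick. Dotted lines mark 2-fold, and Fosl1, with 4 counts and none, is not drawn. Junb sits at 1.03 and Jun at 0.04.

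The 4 genes of low count had wide intervals. Fosb had a log2 ratio of 0.64 (0.03 to 1.28), Egr2 of 0.51 (-0.46 to 1.54) and Egr3 of 0.42 (-0.31 to 1.17). For Egr2 and Egr3 a difference was not detectable at this depth in these counts. In the second quantification the interval of Egr3 lay above 0, at 0.74 (0.07 to 1.44), and that of Egr2 did not, at 0.63 (-0.30 to 1.61). No fold is given for Fosl1, which had 4 counts in replicate 1 and none in replicate 2. Skeletal muscle markers had a median log2 ratio of 2.66, liver markers of 2.09 and macrophage markers of 0.52 in the same direction. The 6 capsule and fibroblast markers, 5 of them higher in replicate 2, had a median of 0.29, and the 6 chromaffin markers, all higher there, one of 0.26, by spike-ins 0.21 and 0.18. The capsule and chromaffin medians lie between the ratios of Jund (0.18) and Fosl2 (0.36). The 7 cortex markers, all higher in replicate 2, had a median of 0.14, by spike-ins 0.06. For the 5 endothelium markers, 4 of them higher there by TMM, the median was 0.08, by spike-ins 0.00. Pancreas and kidney markers went the other way, with medians of -13.11 and -3.35. The part of such cells in the ratios of the 10 genes was not tested.

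Transcript estimates showed that the added Fosl2 counts of replicate 2 were assigned to its coding transcript. The annotation gives Fosl2 1 protein-coding transcript, Fosl2-201 of 6537 bases, and 2 transcripts that keep an intron, Fosl2-202 and Fosl2-203. Fosl2-201 had 14098 counts in replicate 1 and 18831 in replicate 2, with 0.41 as the log2 ratio (counting interval 0.38 to 0.45). Fosl2-202 had 827 and 624 counts, a log2 ratio of -0.41 (-0.56 to -0.26), and Fosl2-203 had 472 and 398 counts, a log2 ratio of -0.25 (-0.45 to -0.05). In this first quantification both intron-keeping transcripts were thus lower in replicate 2, where the coding one was higher. The intervals treat estimated counts as observed, and leave out the uncertainty of assigning reads that transcripts share. Together the 2 intron-keeping transcripts made up 19.7% of the gene's TPM in replicate 1 and 12.9% in replicate 2. In the second quantification the ratios were 0.46 for Fosl2-201 and -0.35 for Fosl2-202, while that of Fosl2-203 turned to 0.13, on 1116 and 1199 counts, and the share was 31.9% and 25.5%. Total RNA also holds unspliced precursor, and reads of it inside these introns cannot be told apart from the annotated intron-keeping transcripts.

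**Figure D3:**
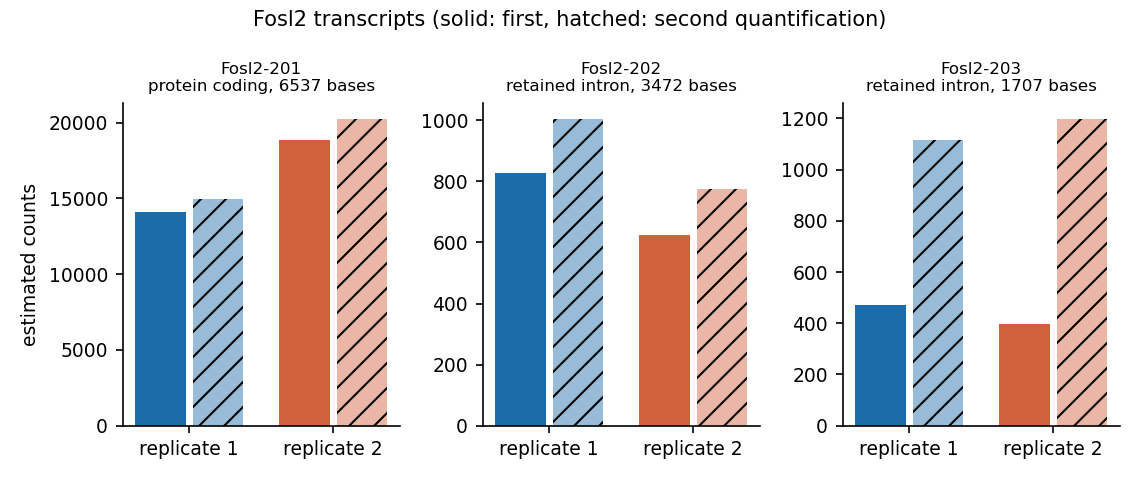
Estimated counts of the 3 annotated Fosl2 transcripts in each library (blue, replicate 1; orange, replicate 2), from the first quantification (solid bars) and the second (hatched bars); each panel has its own vertical axis starting at 0. The coding transcript is higher in replicate 2, and Fosl2-202 is lower there in both quantifications.

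Egr1 and Junb showed no such shift between transcripts. The shorter Egr1 transcript, Egr1-202, held 84.8% and 83.8% of the TPM of the gene, and both its transcripts were higher in replicate 2, with log2 ratios of 0.61 (0.48 to 0.74) for Egr1-202 and 0.72 (0.48 to 0.98) for Egr1-201. In the second quantification Egr1-202 held 77.3% and 78.2%. Junb-201 held 98.2% and 100% of Junb, and Jun and Jund have 1 annotated transcript each. The coding transcript Fos-201 held 75.7% and 80.3% of the TPM of Fos, against 71.9% and 55.0% in the second quantification. There, the 631-base transcript Fos-202 took 40.0% of Fos in replicate 2. The 7 annotated Fosb transcripts could not be ranked: Fosb-203 led in replicate 1 at 44.1% and had no count in replicate 2, where Fosb-205 led at 40.0% in the first quantification and Fosb-201 at 64.2% in the second.

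The genes shared a compact structure, as immediate early genes are known to. In the longest coding transcript with an annotated stop codon, all 10 had 4 exons or fewer, with 1 exon in Jun, Junb and Jund, whereas 20.6% of the 12853 protein-coding genes averaging 100 or more counts had so few. Of the 10, 9 spanned less than 10000 bases, against 22.6% of those genes, and the exception was Fosl2 at 22042 bases. The median span was 25894 bases. The smallest was Jund at 1668 bases.

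AU-rich letters in the 3′ UTR, known to mark short-lived mRNA, were densest in Fos and Junb. The letters ATTTA occurred 4 times in the 815 bases of Fos (4.91 per kb), 2 times in the 485 bases of Junb (4.12 per kb) and 4 times in the 1233 bases of Jun (3.24 per kb). The median over 12670 genes with a 3′ UTR of at least 50 bases was 1.34 per kb, and 6.24% of them had a density at or above that of Fos and 9.61% at or above that of Junb. The median number of matches in these genes was 2, which Junb, with its short 3′ UTR, equalled and did not exceed. Fosl2 and Jund had 1.72 and 1.88 per kb, Egr1 1.64 per kb and Fosb 0.466 per kb, the one value below the median. These 3′ UTRs are of the longest coding transcripts, which are not always the leading ones. For Egr1 it was Egr1-201, with 15.2% and 16.2% of the gene's TPM in replicates 1 and 2. For Fosb it was Fosb-201, which had no count in replicate 1. The longer form TTATTTATT was found in Fos and Fosl2 and in 8.32% of genes. A match to these letters is not a measured half-life.

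**Figure D4:**
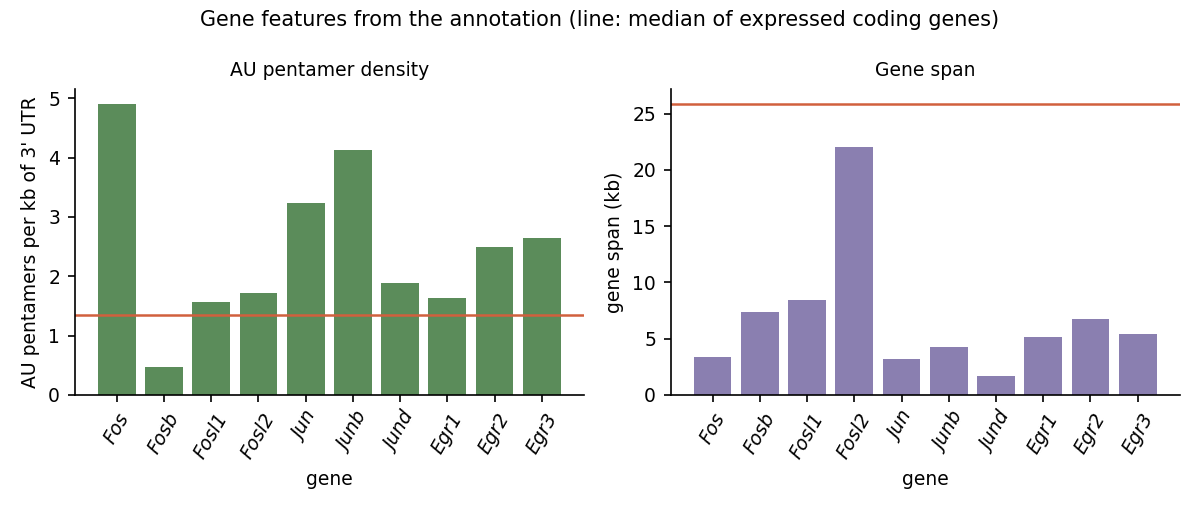
Left, ATTTA matches per kb of annotated 3′ UTR; right, gene span in kb; bars are the 10 genes and the line is the median of protein-coding genes averaging 100 or more counts (for the left panel, those with a 3′ UTR of at least 50 bases). Fos and Junb have the tallest bars on the left, at 4.91 and 4.12 per kb, and Fosl2 is the widest gene, below the median of 25894 bases.

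Other immediate early genes were set beside the 10. The list held 50 symbols, of which Cyr61 and Ctgf are older names of Ccn1 and Ccn2, leaving 48 genes, and 43 of these reached 1 TPM in both libraries. The highest were Zfp36l1, which encodes an mRNA decay factor, at 98.3 and 102 TPM in replicates 1 and 2, Rhob, a small GTPase gene, at 62.9 and 80.5 TPM, and Cited2, a cofactor gene, at 55.2 and 47.7 TPM. Of 42 genes averaging 100 or more counts, 32 were higher in replicate 2 and 10 in replicate 1, or 27 and 15 by spike-ins. Their median log2 ratio was 0.13, or 0.05 by spike-ins. Among all genes of such count, 55.3% were higher in replicate 2 by TMM, and the median was 0.02, or -0.06 by spike-ins. The range was -0.34 to 1.24. Nr4a1, an orphan nuclear receptor gene induced by corticotropin, was the 1 gene of the list past 2-fold, measuring 23.0 and 50.8 TPM in replicates 1 and 2 on 1551 and 3665 counts. Its log2 ratio of 1.24 (1.15 to 1.32) was above that of Junb, and it remained past 2-fold by spike-ins (1.16) and in the second quantification (1.25). The median of this list was closer to that of all genes (0.02) than was that of the 6 members averaging 100 or more counts (0.50). Both sets were chosen with earlier results of these data known.

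The genes that pair with, drive or restrain AP-1 and Egr factors had medians near that of all genes. Among 17 partner genes of the leucine zipper class, the highest were Nfe2l1 at 97.3 and 104 TPM, Cebpb at 81.9 and 102 TPM, and the stress factor gene Atf4 at 56.0 and 53.9 TPM. Of the 12 averaging 100 or more counts, 7 were higher in replicate 2, or 5 by spike-ins, with a median of 0.02, a range of -0.86 to 0.37 and none past 2-fold. Among 22 upstream regulators, 13 were higher in replicate 2, or 9 by spike-ins, with a median of 0.04 and none past 2-fold. Prkaca, a catalytic subunit gene of protein kinase A, measured 80.4 and 96.9 TPM, and the MAP kinase gene Mapk3 measured 57.7 and 65.5 TPM. Srf itself measured 13.1 and 15.2 TPM, a log2 ratio of 0.36 (0.22 to 0.50), and was picked after its value was seen. The Egr corepressor genes Nab1 and Nab2 measured 19.4 and 18.4 TPM and 8.72 and 8.71 TPM, with log2 ratios of -0.04 and -0.08.

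The list of 12 textbook AP-1 target genes did not move in 1 direction. Of 8 averaging 100 or more counts, 4 were higher in each library, or 3 in replicate 2 by spike-ins, with a median log2 ratio of -0.04. Vim, an intermediate filament gene, was highest at 188 and 210 TPM, followed by the cyclin gene Ccnd1 at 47.2 and 43.8 TPM and the protease inhibitor gene Timp1 at 15.9 TPM in both. Spp1, the osteopontin gene, which is also abundant in kidney, was 1 gene past 2-fold, with 19.8 TPM in replicate 1 and 1.15 TPM in replicate 2. Its log2 ratio was -4.02 (-4.48 to -3.61), beside medians of -3.35 for the kidney markers and -13.11 for the pancreas markers. The part of other organs in the Spp1 ratio was not tested. The matrix protease gene Mmp3 had no count in either library. All 10 heat shock genes were higher in replicate 2 by TMM, or 8 by spike-ins, with a median log2 ratio of 0.19. The chaperone genes Hspa8, Hspd1 and Hspe1 were the highest, at 503 and 576, 260 and 266, and 151 and 149 TPM, and none of the 10 reached 2-fold.

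**Figure D5:**
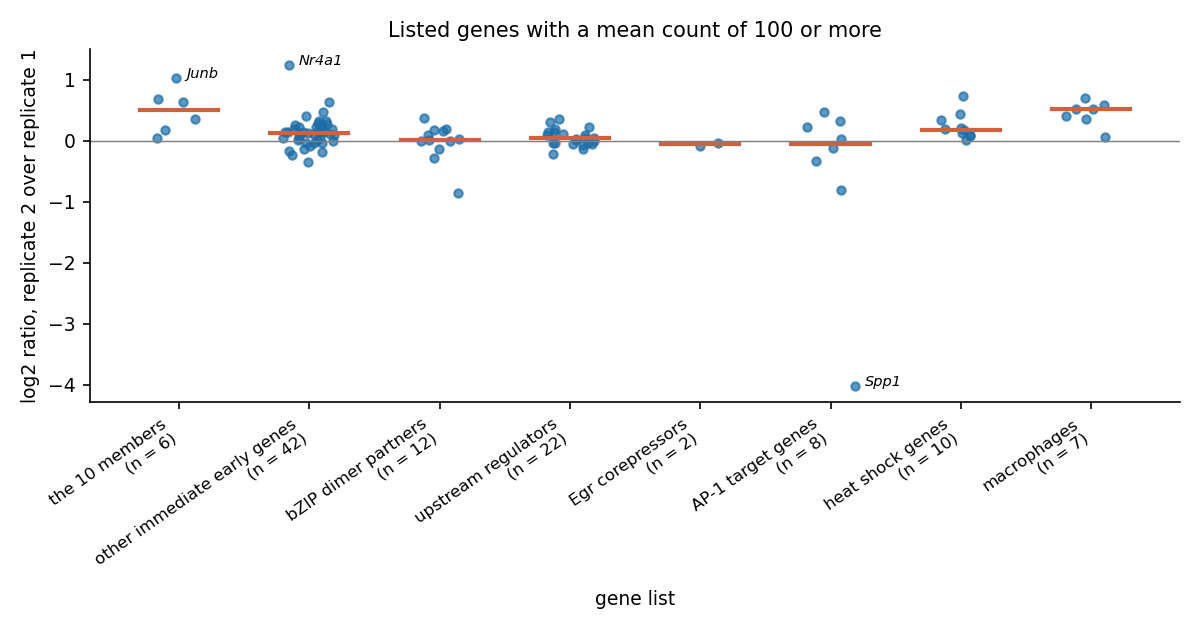
Log2 ratio of replicate 2 over replicate 1 (vertical axis) for each gene averaging 100 or more counts, by gene list; points are genes, the orange line is the list's median, and genes past 2-fold are named. The 10 genes (6 points) have a median of 0.50 and the macrophage markers of 0.52, and the bZIP partners and upstream regulators lie around 0.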

How the data were processed

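The 10 genes and all lists were chosen with earlier results of these data known. Per the file headers, the deposited gene tables give expected counts, TPM, a posterior mean TPM and its bounds. They were made from transcriptome alignments with assembly mm10 and annotation M21. Column names match RSEM output, but no source used here names the aligner, the quantifier or a version. A second deposited transcript table of estimated counts and TPM, made from the read files, has the column names kallisto writes. Reads of a hybrid strain were set against 1 reference genome, and what this does to the wild-derived allele was not tested. The library protocol in the labels is a directional one. Genes overlapping Fosl1, Jun, Junb and Jund lie on the opposite strand.

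Expected counts summed to 31838341 and 32931868 in replicates 1 and 2, and spike-ins made up 0.900% and 0.923%. Intervals and floors (3 counts of the total) cover counting error only, since no molecular identifiers mark single molecules. Counts of annotated genes were rounded and scaled by TMM (factors 1.02 and 0.985), with a prior of 0.5 counts. Levels are TPM as mean and SD. With 2 libraries of 1 group no test was made. Past 2-fold at a mean count of at least 100 is a rule of size. Named were the 10 genes and, of each list, the 3 highest genes and those past 2-fold, except where stated and except 1 gene that is not reported here. No gene was named for a like pattern, since 2 libraries give 1 ratio. Of the listed symbols Ddit3 was left out because 2 genes carry it, and Mkl1 and Mkl2 are older names of Mrtfa and Mrtfb. The steps were tested on simulated data. The alternatives were other scalings, the second quantification, other minimum counts and priors, and leaving out each replicate. Scaling used edgeR 4.0.16 and DESeq2 1.42.0 in R 4.3.3, intervals used scipy 1.17.1, and tables and plots used Python 3.11.15 with pandas 2.3.3, numpy 2.4.6 and matplotlib 3.10.9.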

Additional observations from a re-analysis of the deposited data

How the results depend on the processing

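The summed level of the 10 genes, 223 TPM, was 220 TPM as posterior mean TPM, 400 TPM in the second quantification and 613 TPM when rescaled to the total of nuclear protein-coding genes. It ran from 204 to 243 TPM when either replicate was left out. The rescaling divides by a smaller total, and the cause of the difference in the second quantification was not tested, so levels were compared within a table only. The count of genes past 2-fold, 1 by TMM, was 0 by total counts, 0 by spike-ins and 0 by deposited TPM, 1 by DESeq2 size factors, in the second quantification and at a mean count of at least 20, and 2 with no minimum count, where Fosl1 with 4 counts and none was added. The median log2 ratio, 0.50, lay between 0.42 (spike-ins and deposited TPM) and 0.53 (mean count of at least 20). With a prior of 2 counts it was 0.50. By deposited TPM, Egr2 had a log2 ratio of -1.44 against 0.51 from counts. The log2 ratio of Fosl2, 0.36 by TMM, ran from 0.25 (deposited TPM) to 0.41 (second quantification). Of the ratios of the 10 genes, 9 were above 0 by TMM, by DESeq2 size factors and in the second quantification. By total counts and by spike-ins 8 were above 0, where Jun joined Fosl1 below 0. By deposited TPM 7 of 9 were above 0, with Jun and Egr2 below it and no ratio for Fosl1. Among all genes averaging 100 or more counts, 55.3% were above 0 by TMM. Fosb, Fosl1, Egr2 and Egr3 rest on fewer than 100 counts a library, so depth limits them. No paired analysis was possible because there is 1 group.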
